A study of Homo sapiens with 2 samples.

Results

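Autophagy and lysosome genes were read on 2 Affymetrix arrays of K562 cells, a human chronic myeloid leukaemia line. The 49 genes were taken from a list of names, with every probe set annotated to them, and 48 of them are among the 19775 genes with a probe set of their own. They fall into 3 classes: 25 genes of the autophagy machinery, 8 cathepsins and 16 other lysosomal genes. In the PML4 group the cells had received a retrovirus for PML4, an isoform of the promyelocytic leukaemia protein, and in the control vector group the retroviral vector pMSCV. Both groups were grown in the same medium with serum and kept under G418 for 3 weeks, so selection is shared, and each has 1 array made from 6 µg of total RNA. The labels name neither a clone nor the number of cultures behind an array. With no replicate, no test was made, and each difference is that between these 2 arrays. Signals are MAS5 intensities on a linear scale, and differences are log2 PML4 minus log2 control vector.

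Autophagy encloses cytoplasm in a double membrane that later fuses with the lysosome, where acid hydrolases degrade the cargo. The ULK1 kinase complex starts the process, a lipid kinase complex around BECN1 marks the membrane, and ubiquitin-like conjugation systems attach ATG8 proteins to it. Receptors such as SQSTM1 link cargo to ATG8 proteins, the proton pump acidifies the lysosome, and TFEB and TFE3 are transcription factors that drive many genes of both compartments. In erythroid cells autophagy also clears mitochondria during maturation.

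The listed genes did not shift as one block. The 49 genes had 123 of the array's 54675 probe sets, 121 of them naming 1 gene, and 107 of these were above the floor of 72.4 on at least 1 array (the median signal of human probe sets, taken as the limit for a measured value). 47 genes were measured, 18 with a higher and 29 with a lower signal in PML4 cells. ULK2, a kinase related to ULK1, lay under the floor in all 4 of its probe sets, and the single probe set of GLB1, lysosomal beta-galactosidase, also names TMPPE and was left out. CTSC was at least 2-fold higher, as were 1.23% of all 12541 measured genes, and ULK1 and SGSH were at least 2-fold lower, as were 3.21%. At 1.5-fold 4 listed genes were higher and 5 lower, against 5.7% and 11.9% of all genes. Both counts are close to what those shares give for 47 genes.

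The class medians differed little from that of all genes. The median log2 difference was -0.10 over 24 measured genes of the autophagy machinery, 0.06 over 8 cathepsins and -0.11 over 15 other lysosomal genes. Over all listed genes it was -0.10 and over all measured genes -0.05. Most listed genes had strong signals, and 35 of them lay at or above a mean signal of 907.3. Of these, 42.9% were higher in PML4 cells, against 55.3% of the 5708 measured genes that bright. At 2-fold 1 of the 35 was higher and 0 lower, against 0.683% and 0.753% of the bright genes, and at 1.5-fold 4 were higher and 1 lower, against 4.38% and 4.4%. Across the array the median gap between probe sets of the same gene was 0.30 on the log2 scale, and 20 listed genes differed by more than that, 10 in each direction. The share beyond that gap was 42.6% of the listed and 43.6% of all genes.

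**Figure D1:**
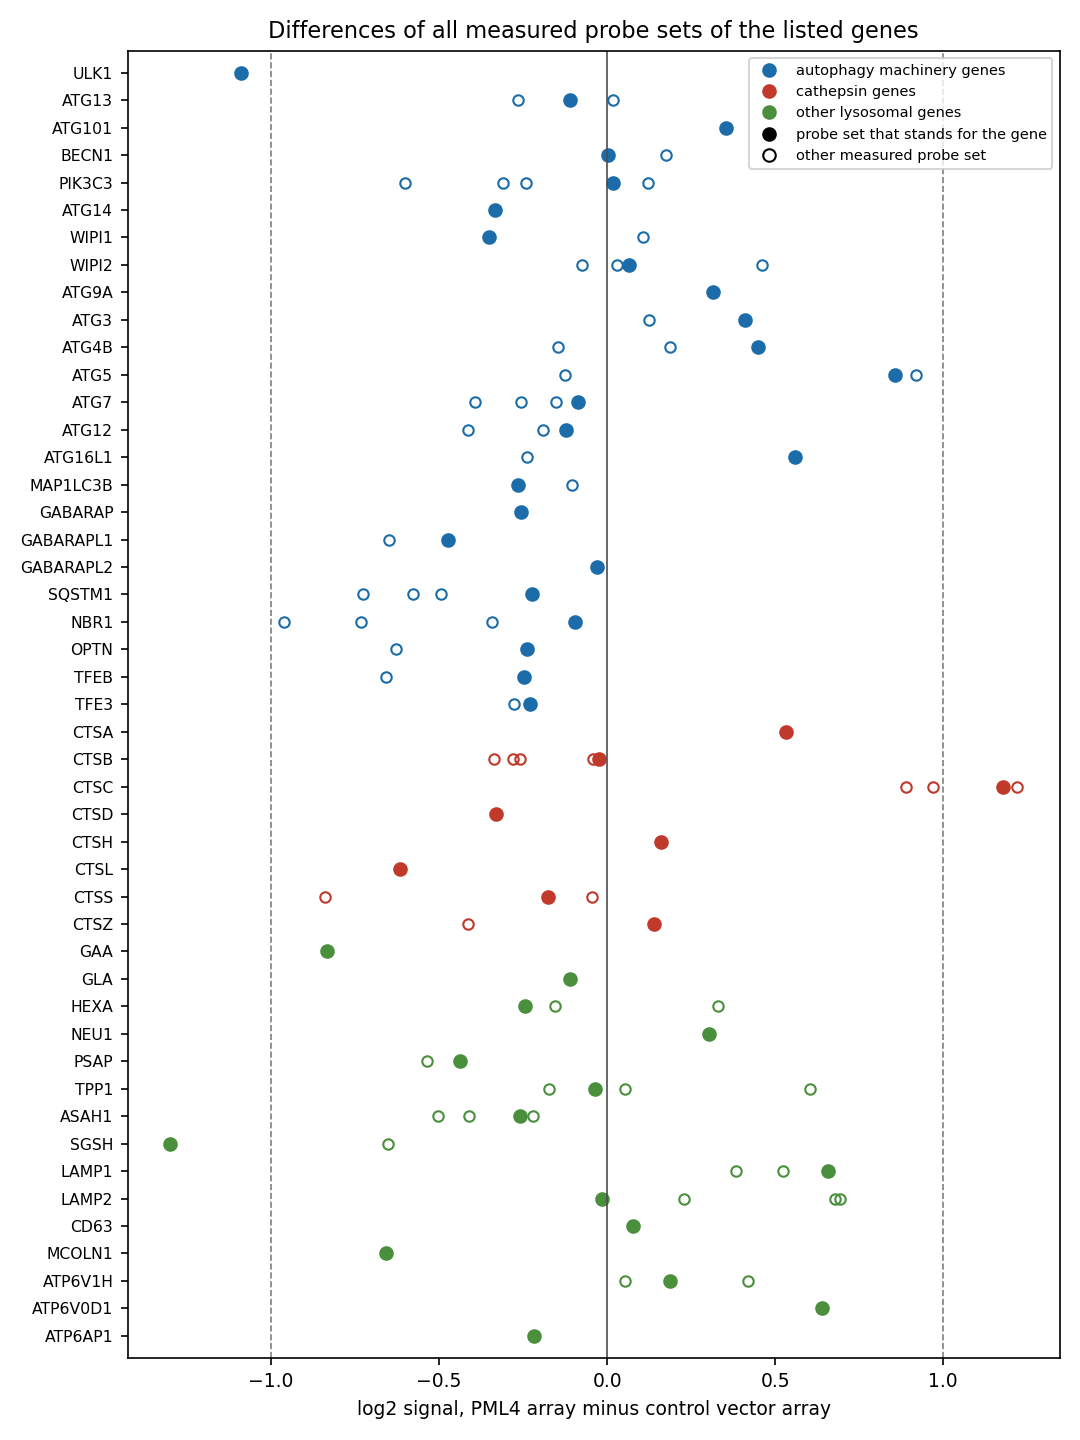
Log2 difference, PML4 array minus control vector array, for all measured probe sets of the 47 measured genes. Filled points are the probe set that stands for the gene, open points its others, colours the 3 classes and dashed lines 2-fold. CTSC lies to the right in all 4 probe sets, ULK1 and SGSH lie beyond 2-fold to the left, and the cargo receptors SQSTM1, NBR1 and OPTN lie to the left throughout.

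PML, the transduced gene, was read by 10 probe sets that disagreed. Of 9 measured ones 5 were higher and 4 lower in PML4 cells, between 7.12-fold higher, at 698.5 on the PML4 array and 98.1 on the control vector array, and 5.92-fold lower, at 156.5 and 927.2. Of 8 erythroid markers of K562 cells 6 were measured, with a summed signal of 69539.4 in PML4 cells and 45206.4 in control vector cells. HBZ, an embryonic globin, was the only erythroid marker called, at 5465.5 in PML4 cells and 1401.4 in control vector cells. Of the 6 measured, 5 were higher, and TAL1 was lower at 1861.8 in PML4 cells and 2679.9 in control vector cells. TFRC, the transferrin receptor, made up a large part of the sum, at 31653.7 in PML4 cells and 17625.2 in control vector cells. GATA1, KLF1 and HBE1 were 1.21-fold, 1.04-fold and 1.36-fold higher in PML4 cells. GATA1 and TAL1 each had 1 of 2 probe sets higher. Among monocyte and macrophage markers, CD14, CD163, MRC1, MARCO and CD4 lay under the floor on both arrays. The summed signal of the 3 measured of 10 such markers was 3919.5 in PML4 cells and 3961.2 in control vector cells. LYZ was at 3134.6 and 3206.4, ITGAM at 742.6 and 678.5 and CSF1R at 42.3 and 76.3, on the PML4 and control vector arrays. Of 6 megakaryocyte markers 4 were measured, summing to 1885.1 in PML4 cells and 1435.7 in control vector cells. TUBB1 was called, at 885.1 in PML4 cells and 361.0 in control vector cells, as in 7 of 8 other settings. ITGA2B was nearly level at 909.4 and 888.4. PF4, at 48.5 and 77.2, and GP1BA, at 42.1 and 109.1, were lower and lay under the floor on the PML4 array. Of 6 fibroblast markers 2 were measured, summing to 335.7 in PML4 cells and 512.9 in control vector cells. The part of these markers in the differences of the listed genes was not tested.

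Cathepsin C was the cathepsin that stood out. CTSC, a dipeptidyl peptidase that activates granule serine proteases, had 6245.3 on the PML4 array and 2761.5 on the control vector array at the probe set that stands for the gene, 2.26-fold higher in PML4 cells. A further probe set was at 1186.2 in PML4 cells and 509.0 in control vector cells, 2.33-fold higher. The last pair, at 5636.9 in PML4 cells against 2875.8 and at 3804.2 against 2055.6 in control vector cells, were 1.96-fold and 1.85-fold higher in PML4 cells. All 4 were higher, and of the 1243 measured genes with at least 4 probe sets 11.6% were likewise higher in all of them. CTSC lay above 99.4% of measured genes by its difference, and it was called higher under all 8 other settings of floor, scaling and probe sets, between 1.06 and 1.23 on the log2 scale.

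Granule genes read beside it were mostly dark. Of 14 granule genes 11 lay under the floor on both arrays, among them the granzymes GZMA, GZMB, GZMH, GZMK and GZMM and the neutrophil proteases ELANE and PRTN3, several of which cathepsin C is known to process. PRF1, the pore-forming perforin, was at 11617.0 in PML4 cells and 3459.0 in control vector cells, and SRGN, the granule proteoglycan serglycin, at 8673.7 and 11143.3. AZU1, a neutrophil granule protein, was at 90.4 in PML4 cells and 176.7 in control vector cells. Of 8 T and NK cell markers 4 were measured, with a summed signal of 5422.9 in PML4 cells and 2788.0 in control vector cells. CD3D, at 4996.3 and 2478.0, and CD3G, at 329.3 and 126.1, were called higher in PML4 cells, CD3D in 6 of 8 and CD3G in 7 of 7 other settings. CD3E, at 55.3 in PML4 cells and 105.9 in control vector cells, and NCAM1, at 42.0 and 78.0, were lower. Both lay under the floor on the PML4 array. CD2, CD8A, NKG7 and KLRD1 lay under the floor on both arrays. Whether PRF1, CD3D and CD3G bear on the CTSC difference was not tested.

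The other cathepsins divided in direction. CTSL, a cysteine protease of broad specificity, was at 5049.9 in PML4 cells and 7745.6 in control vector cells, 1.53-fold lower in its only probe set. CTSA, the carboxypeptidase that stabilises beta-galactosidase and neuraminidase, was at 1797.7 in PML4 cells and 1242.2 in control vector cells, 1.45-fold higher. CTSH, an aminopeptidase, was at 15180.4 and 13574.9, and CTSD, the main aspartic protease of the lysosome, at 284.1 and 357.5, on the PML4 and control vector arrays. Of these only CTSL passed 1.5-fold. CTSB was lower in all 5 probe sets, from -0.34 to -0.02 on the log2 scale, and its brightest was at 5230.8 in PML4 cells and 5318.3 in control vector cells. CTSS, which cuts the invariant chain in antigen-presenting cells, was lower in 3 of 3, with log2 differences from -0.84 to -0.04. Centring on the median gene turned the smallest of these differences upward, CTSB itself to 0.02, and left 8 of 18 cathepsin probe sets lower, against 11 as reported. For CTSZ, a carboxypeptidase, one probe set was at 390.9 in PML4 cells and 354.7 in control vector cells, while the other was at 12.6 and 96.5, so its probe sets disagreed.

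The kinase that starts autophagy had a lower signal. ULK1 was at 235.9 in PML4 cells and 502.1 in control vector cells, 2.13-fold lower, in its only probe set, which put it at percentile 2.43 of measured genes. The 2-fold call was lost under 3 of 8 other settings: it was -0.11 on the log2 scale once the floor was raised to the 75th percentile, and -0.9954 without a floor and -0.9961 after quantile normalization. Its measured partners differed by less and divided in direction. ATG13, the scaffold that binds ULK1, was at 1045.3 in PML4 cells and 1127.7 in control vector cells, with 2 of 3 probe sets lower. ATG101, which stabilises ATG13, was at 917.2 and 717.7, 1.28-fold higher in PML4 cells. RB1CC1, a subunit of the complex that is no member of the set, was at 3588.1 in PML4 cells and 4577.5 in control vector cells. It was 1.28-fold lower, and lower in 2 of 2 probe sets.

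The lipid kinase complex was close to even on the arrays. BECN1, its regulatory core, was at 2142.0 in PML4 cells and 2136.3 in control vector cells. PIK3C3, the catalytic subunit, was at 1545.6 and 1527.3, though its 5 measured probe sets ran from -0.60 to 0.12 on the log2 scale. ATG14, which directs the complex to autophagy, was at 506.9 in PML4 cells and 638.6 in control vector cells, 1.26-fold lower. WIPI2, a reader of the lipid product, was at 5236.3 and 5007.1. WIPI1, a related reader, gave 898.5 in PML4 cells and 1145.8 in control vector cells in one probe set and 885.6 and 822.9 in another, so its direction depended on the probe set. ATG9A, the membrane protein that supplies lipid vesicles, was 1.25-fold higher in PML4 cells, at 1789.4 against 1437.2.

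Conjugation enzymes included the listed autophagy gene with the largest upward difference. ATG5, which forms the enzyme that attaches ATG8 proteins to lipid, was at 7638.4 in PML4 cells and 4219.1 in control vector cells, 1.81-fold higher. A second probe set was at 2749.2 and 1454.6, 1.89-fold higher in PML4 cells, but the third was at 740.6 and 807.1. So 2 of 3 probe sets were higher, and the mean over them was 0.55. ATG16L1, the partner that places this enzyme on membrane, was 1.47-fold higher in one probe set, with 291.9 in PML4 cells and 198.0 in control vector cells, but lower in the other, with 111.5 and 131.6. ATG12, the ubiquitin-like protein joined to ATG5, was lower in 3 of 3 probe sets and ATG7, the activating enzyme of both systems, in 4 of 4, with log2 differences from -0.42 to -0.12 and from -0.39 to -0.09. ATG3, the conjugating enzyme for ATG8 proteins, was 1.33-fold higher, at 3738.4 in PML4 cells and 2811.3 in control vector cells. Its second probe set, at 78.9 and 49.9, gave only a bound. ATG4B, the protease that primes ATG8 proteins, was 1.36-fold higher, at 1223.5 in PML4 cells and 897.1 in control vector cells. Of its 3 probe sets 1 was lower, at 712.8 and 789.1, and the mean over them was 0.16. Probe sets with the suffix _x or _s can read several transcripts, and ATG5, ATG4B and ATG16L1 have no others. Leaving that type out turned the median of the conjugation enzymes to -0.12 over 3 genes, against 0.43 over 6 as reported, and the mean over probe sets gave 0.16. Of their 17 measured probe sets 10 were lower in PML4 cells.

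ATG8 proteins, cargo receptors and the transcription factors had small downward differences that recurred across probe sets. Of the ATG8 family MAP1LC3B, the LC3 protein used as a marker of autophagosomes, was at 5329.4 in PML4 cells and 6408.5 in control vector cells, and GABARAP at 6718.9 and 8032.5. GABARAPL2 was at 8290.4 in PML4 cells and 8472.9 in control vector cells, and GABARAPL1 at 161.9 and 224.8, which is 1.39-fold lower in PML4 cells. All 6 measured probe sets of the family were lower, against 55.1% of the 23607 measured probe sets naming 1 gene. After centring on the median gene, GABARAPL2 turned to 0.02 and the other 5 stayed lower. With suffix _x and _s probe sets omitted, only GABARAP was left of the family, at -0.26. The members share sequence in part, so their probes can read each other, and a further probe set that names both GABARAPL1 and GABARAPL3 was left out.

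All 10 measured probe sets of the cargo receptors were lower in PML4 cells. SQSTM1, also called p62, a receptor for ubiquitinated cargo, was at 2111.9 in PML4 cells and 2463.9 in control vector cells, and its 4 measured probe sets ran from -0.73 to -0.22 on the log2 scale. NBR1, a receptor related to it, was at 2318.7 and 2478.0, and its 4 probe sets ran from -0.96 to -0.10. OPTN, optineurin, a receptor in mitophagy, was at 1392.7 and 1642.7 in one and at 646.4 and 998.9 in the other probe set, on the PML4 and control vector arrays. None reached 2-fold. The downward direction held for all 10 after centring and loess centring, and for 10 of 11 after quantile normalization, where a further SQSTM1 probe set passed the floor at 0.02.

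TFEB was at 173.3 in PML4 cells and 205.7 in control vector cells in one probe set and at 92.7 and 146.3 in the other. TFE3 was at 1193.3 in PML4 cells and 1397.6 in control vector cells, and at 402.0 and 486.7 in its second measured probe set. All 4 were lower in PML4 cells, as reported and after centring, quantile normalization and loess centring, by less than 2-fold. These values are transcript signals and say nothing of where the proteins lie in the cell.

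**Figure D2:**
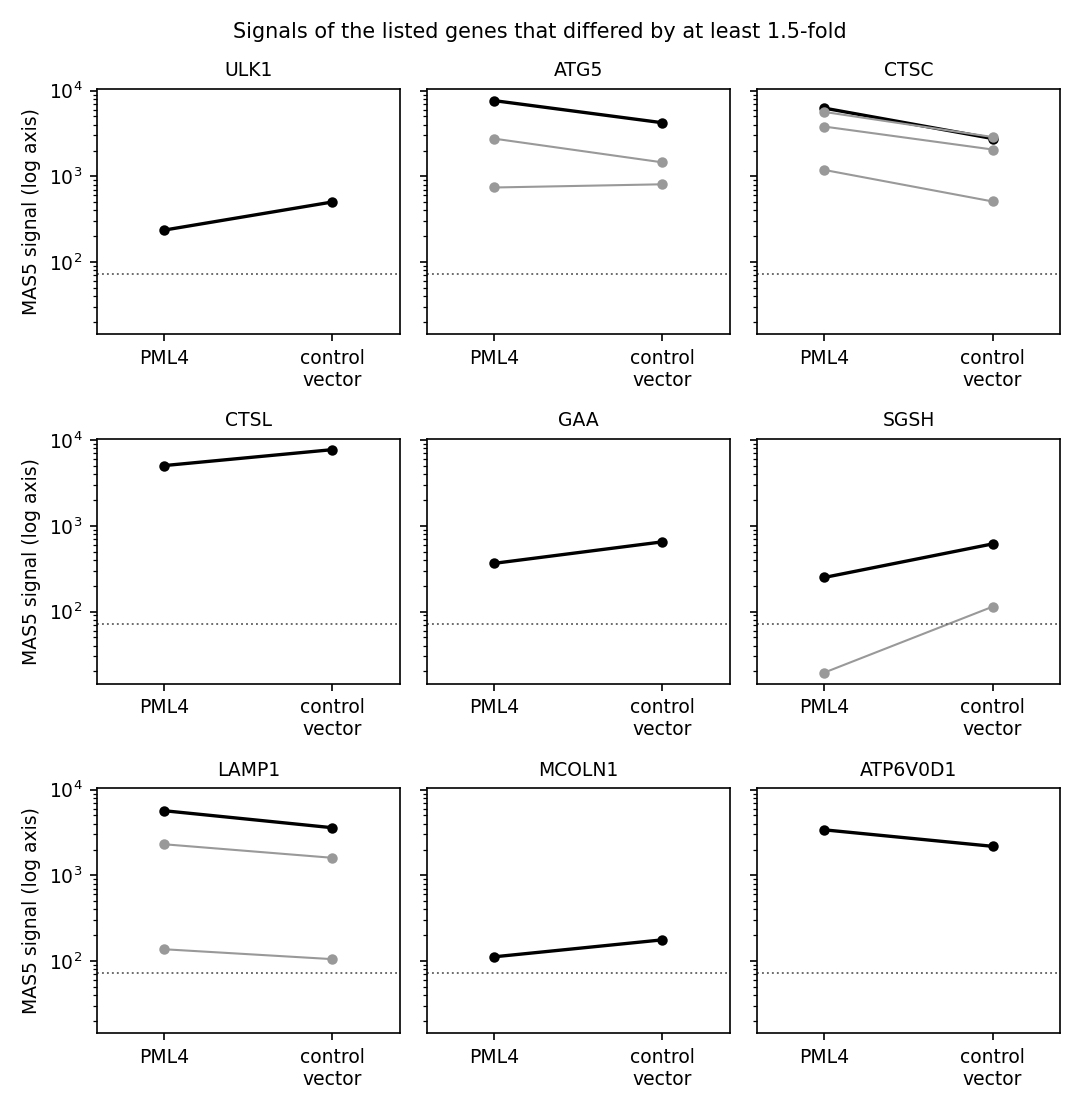
MAS5 signal (log axis) on the PML4 array, left, and the control vector array, right, for the 9 listed genes that differed by at least 1.5-fold. Each line is a measured probe set, the black one stands for the gene, and the dotted line is the floor of 72.4. The 4 CTSC lines fall from left to right together, while 1 of 3 ATG5 lines is nearly level.

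Hydrolases other than the cathepsins, grouped with the activator PSAP, were mostly lower. Of 8 measured genes 7 had a lower signal in PML4 cells, with a median log2 difference of -0.25, and 55.3% of all measured genes were lower. With suffix _x and _s probe sets omitted, 4 of 7 were lower and the median was -0.11; the other settings gave 6 or 7 of 8. SGSH, the sulfamidase that degrades heparan sulfate, was at 249.8 in PML4 cells and 615.0 in control vector cells, 2.46-fold lower. Its second probe set was at 19.4 and 113.7, at least 1.57-fold lower in PML4 cells because that array lay under the floor. Both pointed down. The mean over them was -0.98 with the second at its bound, so the drop is at least that large. GAA, the acid alpha-glucosidase of glycogen breakdown, was at 365.2 in PML4 cells and 650.3 in control vector cells, 1.78-fold lower in its only probe set. PSAP, prosaposin, whose products activate sphingolipid hydrolases, was 1.36-fold lower at 7422.4 in PML4 cells against 10060.6 in control vector cells, and its second probe set, at 2509.0 and 3635.1, pointed the same way. ASAH1, acid ceramidase, was at 10614.3 in PML4 cells and 12714.8 in control vector cells and was lower in all 4 measured probe sets.

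The remaining hydrolases differed by less than 1.5-fold in the probe sets that stand for them. GLA, alpha-galactosidase, was at 1967.6 in PML4 cells and 2125.0 in control vector cells. HEXA, a subunit of hexosaminidase, was at 1549.9 and 1834.3, with 1 of 3 probe sets higher. TPP1, a tripeptidyl peptidase, was at 4406.9 in PML4 cells and 4521.1 in control vector cells, and its 4 probe sets split evenly by direction. NEU1, neuraminidase, was the one hydrolase of this group with a higher signal, at 1533.4 in PML4 cells and 1242.9 in control vector cells.

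Membrane proteins of the lysosome went the other way in part. LAMP1, a main glycoprotein of the lysosomal membrane, was at 5671.0 in PML4 cells and 3593.1 in control vector cells, 1.58-fold higher, and its 3 measured probe sets were all higher, from 0.38 to 0.66 on the log2 scale. LAMP2, its relative required for fusion with autophagosomes, was at 6150.3 and 6209.4 in the probe set that stands for the gene. Its other probe sets were higher in PML4 cells, at 3375.6 against 2108.6, 1916.0 against 1185.1 and 1415.8 against 1208.7 in control vector cells. Which LAMP2 transcript forms these read was not used here. CD63, a tetraspanin of late endosomes, was at 12632.3 in PML4 cells and 11975.6 in control vector cells. MCOLN1, the calcium channel TRPML1, was 1.58-fold lower, at 112.0 in PML4 cells and 176.6 in control vector cells, both close to the floor.

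Subunits of the proton pump, the V-ATPase, were mostly higher. ATP6V0D1, a subunit of its membrane sector, was at 3393.0 in PML4 cells and 2180.4 in control vector cells, 1.56-fold higher. ATP6V1H, of its cytosolic sector, was at 2718.9 and 2390.3 and higher in 3 of 3 probe sets. ATP6AP1, an accessory protein, was at 2052.5 in PML4 cells and 2384.9 in control vector cells. With the other subunits, which are no members of the set, 14 of 17 measured genes were higher in PML4 cells, 0 by 2-fold, and 30 of 37 measured probe sets were higher. After centring ATP6V0A2 passed 2-fold upward, at 1.0038 on the log2 scale. With the floor at percentile 25 ATP6V1B1 and ATP6V1C2 were called lower, with 14 of 19 subunits higher, and ATP6V1C2 was also called lower without a floor. The median was 0.19, between 0.14 and 0.26 under the other settings, and 55.3% of genes at or above a mean signal of 907.3 were higher.

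Promoters were searched for CACGTG, the core of the CLEAR element that TFEB and TFE3 read, because listed genes with strong differences lay on both sides. RefSeq windows (GRCh38.p14) of 250 bases before to 50 after the start were matched by symbol for 41 of the 49 genes. No window was matched for CTSB, CTSS, HEXA, PSAP, ASAH1, SGSH, LAMP2 and ATP6V1H, all of them cathepsins or other lysosomal genes. Of these only ATP6V1H was higher in PML4 cells at the probe set that stands for the gene. CACGTG, a palindrome and so the same on both strands, occurred in 10 of 41, and that core with T before it, TCACGTG, on either strand, in 9. Among all 27305 promoters these shares were 7.435% and 3.82%, and among those of measured genes 10.1% and 5.81%. By class, 2 of 25 autophagy machinery windows held CACGTG, as did 2 of 6 cathepsin and 6 of 10 other lysosomal windows. The 250 bases before the start are printed for 5 genes that hold it and differ in direction, and for CTSC, whose window does not, with capitals marking CACGTG:
LAMP1, chr13:113296989-113297238, plus strand: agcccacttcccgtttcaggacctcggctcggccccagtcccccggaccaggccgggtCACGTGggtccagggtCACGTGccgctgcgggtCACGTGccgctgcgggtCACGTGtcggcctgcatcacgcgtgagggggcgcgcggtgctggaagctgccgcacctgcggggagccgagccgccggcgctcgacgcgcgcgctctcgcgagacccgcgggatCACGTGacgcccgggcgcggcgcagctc
ATP6V0D1, chr16:67481158-67481407, minus strand: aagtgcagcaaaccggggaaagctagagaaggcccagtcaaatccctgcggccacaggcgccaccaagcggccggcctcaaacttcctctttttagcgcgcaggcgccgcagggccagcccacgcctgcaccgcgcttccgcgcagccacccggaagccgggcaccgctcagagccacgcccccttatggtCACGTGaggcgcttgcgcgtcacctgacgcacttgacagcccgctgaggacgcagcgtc
CTSA, chr20:45891085-45891334, plus strand: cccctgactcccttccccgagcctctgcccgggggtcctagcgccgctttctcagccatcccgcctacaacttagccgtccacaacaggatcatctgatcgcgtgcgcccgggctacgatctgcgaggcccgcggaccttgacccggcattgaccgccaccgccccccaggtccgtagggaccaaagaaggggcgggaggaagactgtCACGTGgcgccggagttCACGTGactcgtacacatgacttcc
GAA, chr17:80101331-80101580, plus strand: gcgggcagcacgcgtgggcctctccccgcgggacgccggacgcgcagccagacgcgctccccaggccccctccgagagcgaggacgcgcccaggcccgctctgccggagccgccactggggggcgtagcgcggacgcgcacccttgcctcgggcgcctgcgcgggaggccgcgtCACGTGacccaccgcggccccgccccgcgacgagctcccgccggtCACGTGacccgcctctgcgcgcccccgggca
MCOLN1, chr19:7522374-7522623, plus strand: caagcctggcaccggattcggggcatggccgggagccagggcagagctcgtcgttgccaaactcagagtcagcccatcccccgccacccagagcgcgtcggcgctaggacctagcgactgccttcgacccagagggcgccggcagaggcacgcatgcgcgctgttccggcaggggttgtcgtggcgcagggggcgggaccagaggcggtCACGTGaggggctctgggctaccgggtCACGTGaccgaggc
CTSC, chr11:88337737-88337986, minus strand: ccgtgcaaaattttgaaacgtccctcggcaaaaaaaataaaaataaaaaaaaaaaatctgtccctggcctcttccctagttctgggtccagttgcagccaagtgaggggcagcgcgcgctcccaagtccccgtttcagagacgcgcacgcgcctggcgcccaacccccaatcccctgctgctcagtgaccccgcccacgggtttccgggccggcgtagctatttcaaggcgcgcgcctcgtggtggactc

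Genes with this element lay on both sides of zero. LAMP1 held it 6 times, 5 of them in the stretch printed and the last across the start, and was 1.58-fold higher in PML4 cells. ATP6V0D1, with 1 copy, and CTSA, with 2, were 1.56-fold and 1.45-fold higher. GAA and MCOLN1 held 2 copies each and were 1.78-fold and 1.58-fold lower. Of the 10 listed genes with CACGTG 6 were higher, the others being ATG3, NEU1 and CD63, and 4 were lower, the others being CTSD and ATG14. Their median was 0.19, against -0.10 for the 29 measured listed genes with a window and no CACGTG. The genes with no matched window are in neither median. All but ATP6V1H were lower in PML4 cells at the probe set that stands for the gene. For LAMP2 that difference was -0.01, and its other 3 probe sets were higher. Among all measured genes with a window the medians were -0.0021 with it and -0.04 without it. A match of letters is a description of the window and shows no binding.

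**Figure D3:**
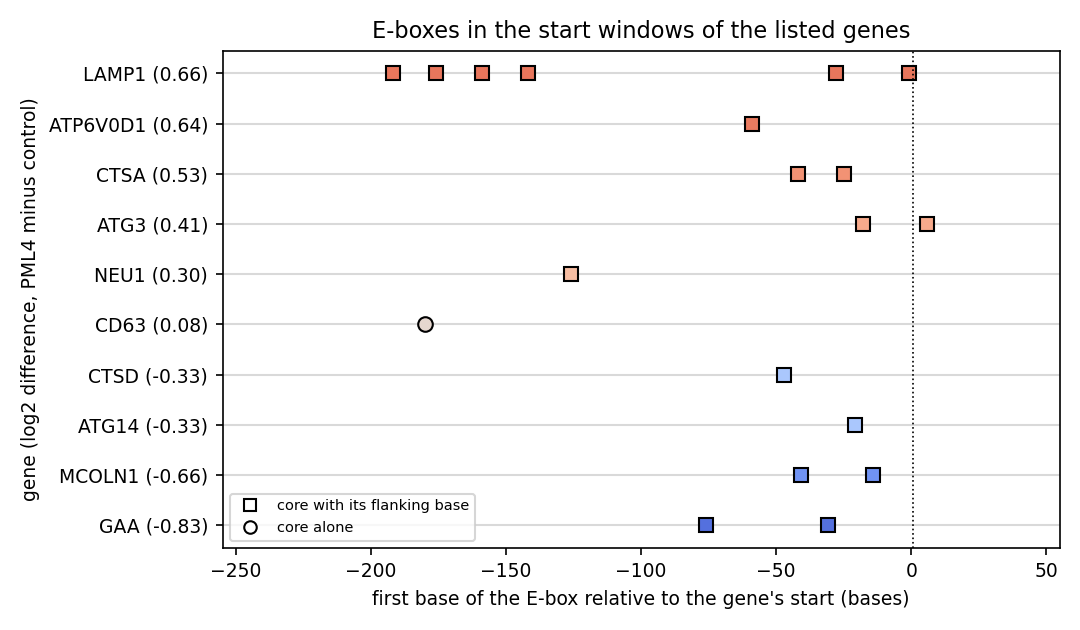
Position of the first base of each CACGTG relative to the gene's start for the 10 listed genes that hold it, ordered and coloured by log2 difference (red higher and blue lower in PML4 cells). Squares have a flanking base that makes TCACGTG on either strand. LAMP1 holds 6 copies, and genes with 2 copies appear both at the top and at the bottom.

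Other genes of the pathway, which are no members of the set, were read as lists beside them. Of 143 such genes 122 were measured, 68 higher and 54 lower in PML4 cells, with a median of 0.04. 2 were at least 2-fold higher and 4 at least 2-fold lower, against 1.23% and 3.21% of all measured genes. Both counts are close to what those shares give for 122 genes. Among 42 measured autophagy genes ATG16L2, a relative of ATG16L1, was the only call, at 641.3 in PML4 cells and 1937.1 in control vector cells, 3.02-fold lower in 2 of 2 probe sets by direction. NCOA4, the receptor for ferritin, was at 9292.0 and 9236.2, and TAX1BP1, a cargo receptor, at 6774.5 and 6465.4, on the PML4 and control vector arrays.

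Of 10 measured other cathepsins and cystatins, CST7, cystatin F, an inhibitor of cathepsins including cathepsin C, was at 196.7 in PML4 cells and 64.8 in control vector cells, at least 2.72-fold higher. CSTA, cystatin A, was at 321.2 and 648.6, 2.02-fold lower in PML4 cells, a call that 3 of 8 other settings gave. CSTB and CST3, which inhibit cysteine cathepsins, were at 8932.5 and 2868.6 in PML4 cells and at 7835.1 and 3255.4 in control vector cells. Of 23 measured other lysosomal enzymes LIPA, the acid lipase, was 2.27-fold higher, at 229.1 in PML4 cells and 101.1 in control vector cells, a call kept in 6 of 7 other settings, and ARSA, arylsulfatase A, 2.54-fold lower, at 73.6 and 186.7. GUSB, beta-glucuronidase, was at 8117.5 and 8638.0, and PPT1, a thioesterase, at 6466.0 and 7214.5, on the PML4 and control vector arrays. Listed and other enzymes together, PSAP included, were lower in 21 of 31 cases, with a median of -0.15. Over all measured genes 55.3% were lower and the median was -0.05.

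Of 20 measured other membrane and sorting genes LAMP3 was the only call, 2.19-fold lower at 88.8 in PML4 cells and 194.4 in control vector cells, both near the floor, a call kept in 4 of 7 other settings. LAPTM4B and LAPTM5, lysosomal transmembrane proteins, were at 25917.2 and 12962.5 in PML4 cells and at 31132.6 and 9449.9 in control vector cells. Among other pump subunits ATP6V1G1 was at 10709.2 in PML4 cells and 8866.8 in control vector cells, and ATP6AP2 at 9053.6 and 8511.3. Of 13 measured genes that relate to TFEB or anchor mTORC1 at the lysosome, 10 had a higher signal, 0 reached 2-fold and the median was 0.18. Higher signals were found in 44.7% of all measured genes and in 55.3% of those at or above a mean signal of 907.3. With suffix _x and _s probe sets omitted, 4 of 9 were higher and the median turned to -0.02. LAMTOR5 was at 10618.8 in PML4 cells and 9618.9 in control vector cells and LAMTOR3 at 3575.4 and 3155.4, both subunits of the Ragulator anchor.

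**Figure D4:**
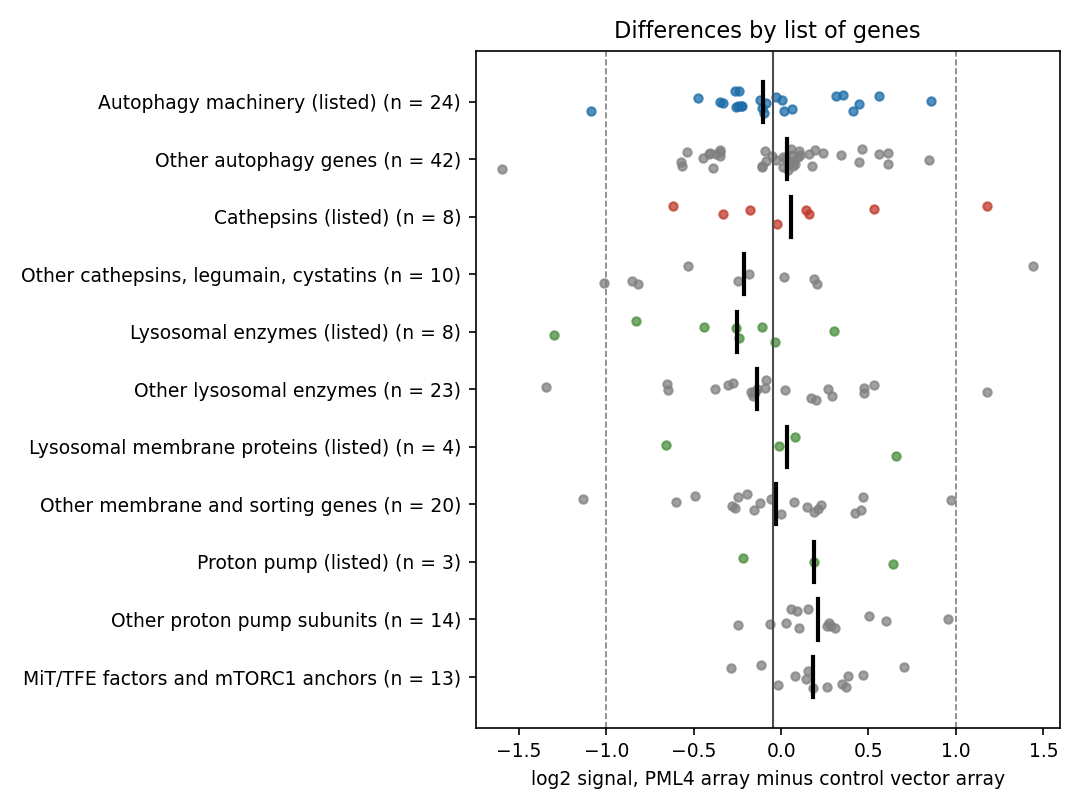
Log2 difference, PML4 array minus control vector array, for each measured gene of the listed classes (coloured) and of the other lists (grey). Thick bars are list medians, the solid line is the median of all measured genes at -0.05, and dashed lines mark 2-fold. Pump subunits and mTORC1 anchors lie mostly to the right and lysosomal enzymes mostly to the left, with overlap between all lists.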

How the data were processed

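The authors deposited MAS5 signal intensities on a linear scale. The submitters' processing notes name MAS5 and give no version, and nothing used here states its settings. With 2% trimmed at each end, the mean signal was 500.13 on the PML4 array and 499.99 on the control vector array. Probe sets were named from the GEO platform table, and 41091 of 54613 human ones carry 1 gene. The rest was computed with Python 3.11.15, pandas 2.3.3, numpy 2.4.6 and statsmodels 0.14.6. Values below 72.4, the median human signal, were set to 72.4 ahead of the log2 step, which makes folds against such values lower bounds. Each gene is represented by whichever of its measured probe sets was brightest on average (log2). A call is a 2-fold difference. Steps were tested on simulated data with changes of 3-fold or more in genes well above the floor. Smaller changes, and changes near the floor, were not simulated. The number of arrays limits the precision.

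Members, lists and settings were chosen with earlier results of these data known. All members are named. Other lists give at most 4 called genes and their 2 brightest, and marker lists their called genes. Further genes were named after their values were seen. Tried as well were a floor at percentile 25 or 75, a pseudocount of 32 in place of a floor, median centring, quantile normalization, loess centring (span 0.4), means over probe sets, omission of suffix _x and _s probe sets, and calls at 1.5-fold and 3-fold. List counts under these settings were added after seeing the data.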

Additional observations from a re-analysis of the deposited data

How the results depend on the processing

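No paired analysis was possible because each group has 1 array and no test was made. CTSC was called higher under all 8 settings of floor, scaling and probe sets, and 37 of 47 genes kept their sign in each setting that measured them. The other 10 had differences of at most 0.35 in size. Of 355 gene values under these settings 16 moved by more than 0.30, the median gap between probe sets of a gene, and no called gene changed sign. The count of genes called lower, 2 as reported, was 0 once the floor was raised to percentile 75 and 1 without a floor (SGSH), after quantile normalization (SGSH) and with the mean over probe sets (ULK1), where the SGSH mean includes a bound. Of all genes 3.21% were called lower as reported, and 0.792%, 4.6%, 2.26% and 2.62% under these settings in that order. Calls at 1.5-fold gave 4 higher and 5 lower, against 5.7% and 11.9% of all measured genes. Calls at 3-fold gave 0 and 0, against 0.215% and 0.47%. By construction a lower cut-off can only add calls and a higher one only remove them. Centring moved the median of all listed genes to -0.0470. With the mean over probe sets the medians were -0.19 for the autophagy machinery, -0.16 for cathepsins and -0.0226 for other lysosomal genes. With suffix _x and _s probe sets omitted they were -0.24 for the autophagy machinery and 0.19 for other lysosomal genes, over 16 and 12 genes. The cause of these moves was not tested. Signals near the floor, such as those of MCOLN1, LAMP3 and ARSA, are the least precise.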

Other observations

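Within the proton pump, a split by sector was made after the values were seen. All 7 measured subunits of the membrane sector V0 were higher in PML4 cells, with a median of 0.50 on the log2 scale, and 3 of them by at least 1.5-fold, as were 5.7% of all genes. ATP6V0A2 was at 2011.0 in PML4 cells and 1037.4 in control vector cells, 1.94-fold higher, and all 5 of its probe sets were higher. ATP6V0E1 was at 4746.6 and 3128.6, with 3 of 5 probe sets higher, and ATP6V0E2 at 1259.1 and 887.6, on the PML4 and control vector arrays. Of 8 measured subunits of the cytosolic sector V1, 6 were higher, with a median of 0.13. ATP6V1C2, at 12.9 in PML4 cells and 85.9 in control vector cells, was lower by an amount known only as a bound, and the other 7 differed by less than 1.5-fold. With the mean over probe sets the medians were 0.30 for V0 and 0.09 for V1. With suffix _x and _s probe sets omitted, 4 of 5 V0 genes were higher, with a median of 0.31.

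The 4 Rag GTPases, RRAGA to RRAGD, and the 4 measured LAMTOR subunits, which hold mTORC1 at the lysosome, were also grouped after their values were seen. All 8 were higher in PML4 cells, with a median of 0.36. Of all measured genes 44.7% were higher, and of those at or above a mean signal of 907.3, 55.3%. RRAGD was the only one beyond 1.5-fold, at 841.5 in PML4 cells and 516.2 in control vector cells. Its 2 probe sets disagreed in direction, as did those of RRAGC and LAMTOR5. With suffix _x and _s probe sets omitted, 2 of 4 were higher. M6PR, the cation-dependent mannose 6-phosphate receptor that sorts hydrolases to the lysosome, was at 2459.9 in PML4 cells and 1252.2 in control vector cells, 1.96-fold higher in its only probe set.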
